A study of Danio rerio with 12 samples.

Results

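Regions of accessible chromatin that both osteoblast groups of the zebrafish skeleton held among their strongest sites, and that neither chondrocyte group held there, numbered 1311. They were chosen from 133213 regions made by joining accessibility summits of 12 ATAC-seq libraries that lay within 250 bp of each other. From each list only the top 8407 summits by the authors' score were used, a number set by the shortest list, and these summits are called kept. A group held a region when at least 2 of its 3 libraries had a kept summit in it. By this rule 13540 regions were held by at least 1 group, and the 1311 members made up 9.68% of them. Another 1746 regions were held by both chondrocyte groups only and 4088 by all 4 groups. Because kept summits chose the members, the contrast of osteoblasts with chondrocytes is given as a description and without a test.

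All libraries came from wild-type zebrafish (WT) at 15 days post fertilisation that carried the transgenes entpd5a:Gal4FF;UAS:GFP and R2col2a1a:mCherry. Head osteoblasts, which the labels call classical, and trunk osteoblasts, called non-classical, were sorted as GFP-positive and mCherry-negative cells. Head chondrocytes and trunk chondrocytes were sorted as GFP-negative and mCherry-positive cells. Each of the 4 groups held 3 libraries named biological replicates, and the labels do not say how many fish went into a library. The osteoblast groups are thus defined by activity of the entpd5a driver, and in zebrafish notochord sheath cells express this gene too. The labelled cell types could not be checked against marker genes, because no annotation of the genome build of these files was used here.

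In ATAC-seq a transposase cuts DNA that is not wrapped tightly by nucleosomes, so that promoters, enhancers and other sites bound by regulatory proteins stand out as peaks, and the summit of a peak marks the base with the most cuts. Osteoblasts lay down and mineralise bone matrix, and entpd5a encodes a phosphohydrolase needed for mineralisation in zebrafish. Chondrocytes build cartilage rich in type II collagen, encoded by col2a1a. In vertebrates head skeleton derives largely from neural crest and trunk skeleton from mesoderm.

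The lists differed in length from 8407 summits in trunk chondrocyte replicate 3 to 79517 in head chondrocyte replicate 1. The score of the weakest kept summit ranged from 1.31 in trunk chondrocyte replicate 3, whose whole list was kept, to 171.8 in head chondrocyte replicate 1, so the reduced lists have equal length and not equal stringency. Per the labels, some files of replicate 1 were lost in every group but head chondrocytes. Over regions tested in all 6 osteoblast libraries, the deviations of trunk osteoblast replicate 3 from its group followed those of head osteoblast replicate 2 (correlation 0.40). Head chondrocyte replicate 3 stood apart from the other head chondrocyte libraries on the members, with a kept summit in 226 of them, against 68 in replicate 1 and 41 in replicate 2.

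By the rule every member had a kept summit in at least 4 osteoblast libraries. All 6 osteoblast libraries had a kept summit in 578 members (44.1%), 5 libraries in 508 (38.7%) and 4 libraries, the fewest the rule allows, in 225 (17.2%). By library, head osteoblast replicates 1, 2 and 3 had a kept summit in 88.7%, 93.7% and 89.3% of the members. Trunk osteoblast replicates 1, 2 and 3 had one in 80.0%, 86.2% and 88.9%. Of the 508 members kept in 5 libraries, 182 lacked a kept summit in trunk osteoblast replicate 1, which had the shortest osteoblast list, and 22 lacked one in head osteoblast replicate 2.

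By the rule at most 1 library of each chondrocyte group had a kept summit in a member. Head chondrocyte replicates 1, 2 and 3 had one in 5.19%, 3.13% and 17.2% of the members, and trunk chondrocyte replicates 1, 2 and 3 in 6.86%, 5.80% and 14.5%. No chondrocyte library had a kept summit in 783 members (59.7%), 1 library did in 365 (27.8%) and 2 libraries, 1 of each location, in 163 (12.4%). A stricter set of 339 members had a kept summit in all 6 osteoblast libraries and in no chondrocyte library. Without head chondrocyte replicate 3 the rule gave 1532 regions and without trunk chondrocyte replicate 3 it gave 1432, which by the rule must include the 1311 members.

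Most members had a chondrocyte summit in the full lists, which typically stood further down its list than the osteoblast summits did. In the full lists, 763 members (58.2%) had a summit in 5 of the 6 chondrocyte libraries and 167 (12.7%) in all 6, whereas 14 (1.07%) had a summit in none. Ranks within a library count from 1 for its strongest summit. They compare places within lists and do not measure the strength of a site across libraries. The median rank of the 1311 members was 5348, 5449 and 5583 in head osteoblast replicates 1, 2 and 3 and 5974, 5820 and 5495 in trunk osteoblast replicates 1, 2 and 3. It was 13899, 14516 and 13153 in head chondrocyte replicates 1, 2 and 3, and 15635 and 14262 in trunk chondrocyte replicates 1 and 2. The median could not be given for trunk chondrocyte replicate 3, whose list held a summit in 190 members. In 706 members (53.9%) every osteoblast rank was better than every chondrocyte rank, a missing summit counting as last, and 12.7% of the 13540 regions held by any group had this order. The members were chosen on these ranks, so that share describes the choice.

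**Figure D1:**
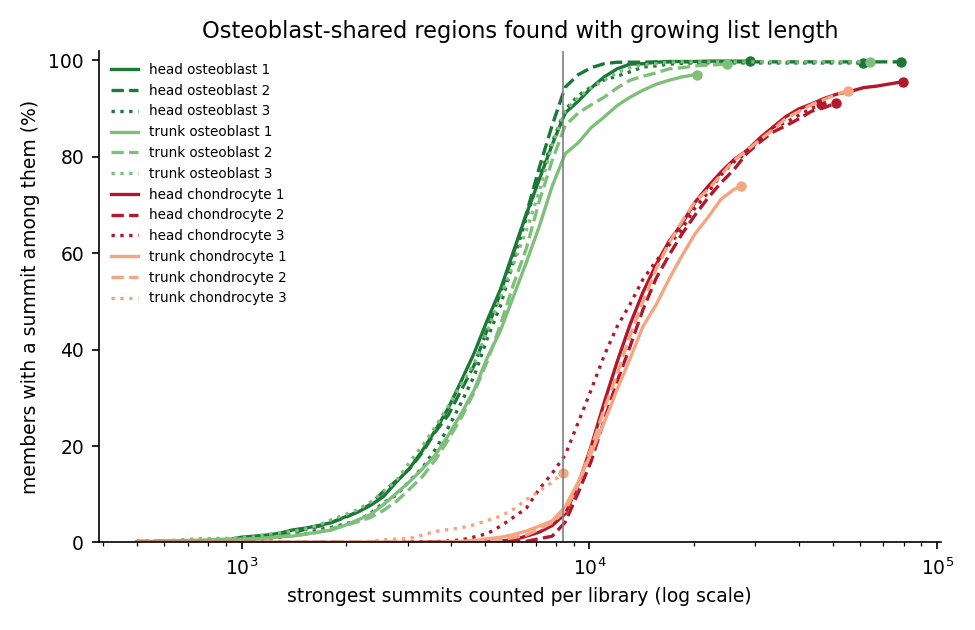
Share of the 1311 members (vertical axis, %) with a summit among the strongest summits of a library, against the number of summits counted (horizontal axis, log scale). Each line is 1 library, its end point is its full list, and the vertical line marks 8407 summits. The osteoblast lines reach between 97.0% and 99.8% at full length, and the 5 longer chondrocyte lists end between 74.0% and 95.6%.

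Lengthening the lists changed the state of most members. With trunk chondrocyte replicate 3 left out, the other 11 lists could be taken at 20380 summits. The rule still asked for 2 libraries, so trunk chondrocytes needed both of theirs and every other group 2 of 3. Counts for head and trunk chondrocytes are therefore not on equal terms. At that length 322 members (24.6%) were still held by both osteoblast groups and neither chondrocyte group, 720 (54.9%) were held by all 4 groups, 206 (15.7%) by both osteoblast groups and head chondrocytes, and 63 (4.81%) by both osteoblast groups and trunk chondrocytes. Head chondrocyte replicates 1, 2 and 3 then had a summit in 71.1%, 68.8% and 69.8% of the members, and trunk chondrocyte replicates 1 and 2 in 64.4% and 71.2%. Of the 1746 regions shared by both chondrocyte groups only, 839 (48.1%) kept their state at that length. The difference between these shares was not tested. The pattern that defines the members was then shown by 2861 regions, of which the 322 members made up 11.3%.

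The pattern was also read in libraries whose kept summits had not chosen the regions. In 3 rounds the libraries of 1 replicate number were set aside, regions were chosen from the other 8 by the same requirement of 2 libraries per group, and the share with a kept summit in each set-aside library was taken. With replicate 1 set aside, 1122 regions were chosen, of which 87.9% were found in the osteoblast library from the head and 77.0% in that from the trunk. The chondrocyte library from the head had 20.9% of them and that from the trunk 20.2%. With replicate 2 set aside, 972 regions were chosen, found in 95.7%, 83.6%, 19.1% and 21.1% in the same order. With replicate 3 set aside, 990 regions were chosen, found in 91.9%, 89.7%, 36.3% and 28.9%. The 6 osteoblast values lay between 77.0% and 95.7%, with a median of 88.8%, and the 6 chondrocyte values lay between 19.1% and 36.3%, with a median of 21.02%. The ranges did not overlap. Of the regions held by any group in the same rounds, the set-aside osteoblast libraries had between 59.2% and 65.1% and the chondrocyte libraries between 54.3% and 66.0%. The 2 sets had unlike rules. Chosen regions needed a kept summit in both remaining libraries of each osteoblast group. They were also not allowed one in both remaining libraries of either chondrocyte group. Regions held by any group needed a kept summit in both remaining libraries of at least 1 group of either cell type. Region bounds and the limit of 8407 summits came from all lists, the set-aside ones included. The shares therefore describe how far the choice carried over to further libraries of the same groups. The chosen regions overlap between rounds, so no test was made.

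**Figure D2:**
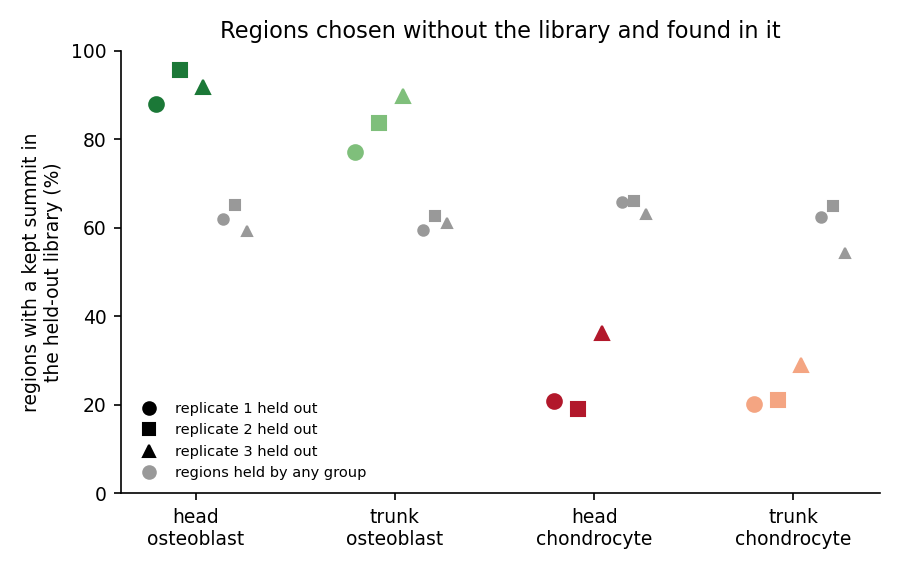
Share of regions chosen without a library that had a kept summit in that library (vertical axis, %), by group. Region bounds came from all 12 lists. Coloured symbols are regions with the members' pattern in the other 8 libraries, grey symbols all regions held by any group there, and the symbol's shape gives the replicate number set aside. All 6 osteoblast libraries lie above their grey symbols and all 6 chondrocyte libraries below theirs.

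The 10 strongest members were taken by their mean rank over the 6 osteoblast libraries, and they ranked 3024 or better in each. Among members kept in all 6 osteoblast libraries, the lowest mean rank belonged to a region on chromosome 19 from 40966182 to 40966274 (GRCz11, positions counted from 1). Its ranks were 403, 255 and 435 in head osteoblast replicates 1, 2 and 3 and 448, 531 and 226 in trunk osteoblast replicates 1, 2 and 3. In chondrocytes it ranked 10549, 14900 and 15059 in the head replicates and 16628 and 4611 in trunk replicates 1 and 2, and replicate 3 had no summit there. Osteoblast and chondrocyte ranks did not overlap, and trunk chondrocyte replicate 2 was the only chondrocyte library in which it was kept. A further member on the same chromosome, from 40983179 to 40983249, lay 17.0 kb away and was also among the 10 strongest. It ranked 921, 944 and 751 in head and 528, 1270 and 753 in trunk osteoblasts, and between 19264 and 31596 in the 5 chondrocyte libraries that had a summit.

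On chromosome 5, the region from 19244444 to 19244568 ranked 682, 338 and 607 in head osteoblasts and 739, 572 and 397 in trunk osteoblasts. It had a summit in all 6 chondrocyte libraries, with a best rank of 7928 in trunk chondrocyte replicate 3. On chromosome 2, the region from 3545213 to 3545294 ranked 1210, 773 and 553 in head and 1251, 665 and 694 in trunk osteoblasts, and its best chondrocyte rank was 10736. Head and trunk ranks of both regions overlapped. On chromosome 16, the region from 20632546 to 20632564 ranked 1293, 1018 and 1554 in head and 1720, 1815 and 1059 in trunk osteoblasts. It had a summit in 1 chondrocyte library, trunk chondrocyte replicate 1, at rank 10823, the fewest among the 10 strongest.

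On chromosome 18, the region from 7167812 to 7167904 ranked between 352 and 1877 in the osteoblast libraries, with a best chondrocyte rank of 8838. On chromosome 3, the region from 23498780 to 23498839 ranked between 815 and 1827, with a best chondrocyte rank of 9771. Another on chromosome 3, from 5240986 to 5241041, ranked between 764 and 1643 and was kept in trunk chondrocyte replicate 3 at rank 5405. On chromosome 10, the region from 33091841 to 33092021 ranked between 629 and 2075, and in chondrocytes no better than 16830. On chromosome 24, the region from 9511672 to 9511711 was uneven. It ranked 402, 411 and 1143 in head osteoblasts and 3024, 2689 and 687 in trunk osteoblasts, so that trunk replicate 3 lay among the head values and the other 2 trunk libraries ranked it weaker than every head library.

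No member kept in all 6 osteoblast libraries lacked every chondrocyte summit within 1000 bp. Of the 14 members without a chondrocyte summit in the region itself, 11 also had none within 1000 bp, and those 11 were kept in 4 or 5 osteoblast libraries. The 3 others were kept in all 6. The one on chromosome 7 from 17928724 to 17928771 ranked 3538, 2494 and 2718 in head and 3260, 2820 and 2553 in trunk osteoblasts. The one on chromosome 8 from 25448238 to 25448302 ranked 2593, 2848 and 4737 in head and 2350, 2781 and 1362 in trunk osteoblasts. The one on chromosome 21 from 23651976 to 23652060 ranked 1529, 2602 and 5179 in head and 3875, 7965 and 1561 in trunk osteoblasts. In each of the 3, head and trunk ranks overlapped, and a chondrocyte summit lay outside the region within 500 bp.

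Among the 11 members with no chondrocyte summit within 1000 bp, the one on chromosome 16 from 53033514 to 53033575 ranked 3502, 3918 and 1696 in head and 9338, 3418 and 8006 in trunk osteoblasts. The one on chromosome 20 from 44527768 to 44527817 ranked 3118, 3395 and 5421 in head and 15401, 5120 and 3105 in trunk osteoblasts. The one on chromosome 10 from 16112723 to 16112984 ranked 4724, 6552 and 12817 in head and 8281, 7980 and 2578 in trunk osteoblasts. The best rank of any of the 11 in any osteoblast library was 1696. The count of 14 rose to 26 without head chondrocyte replicate 1, the longest list, and was between 14 and 21 without any other single chondrocyte library. A missing summit shows only that the authors' caller reported none, and the read depth behind the lists is unknown.

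Some members lay close to the limit of 8407. On the osteoblast side the deciding value was the second-best rank in the group where that rank was weaker, and in 206 members (15.7%) it lay within 500 of the limit. On the chondrocyte side, 104 members (7.93%) had a chondrocyte group whose second-best rank missed the limit by less than 500, and 297 (22.7%) were close on at least 1 side. The closest on the osteoblast side, on chromosome 22 from 506579 to 506967, had ranks of 6063, 7823 and 10828 in head and 12966, 5862 and 8405 in trunk osteoblasts. The 4 next closest members, on chromosomes 4, 3, 23 and 14, had deciding ranks between 8397 and 8404. Just outside, a region on chromosome 6 from 12459486 to 12459543 had ranks of 7330, 8296 and 9422 in head and 8412, 6389 and 13538 in trunk osteoblasts, and missed by its value of 8412. The 4 next regions outside, on chromosomes 4, 4, 9 and 19, had deciding ranks between 8418 and 8427, and 184 regions missed by less than 500 ranks.

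Head and trunk osteoblasts were then compared over the members, since the rule asked for a summit in both groups and did not use their order. The 6 osteoblast lists were taken at 20380 summits, the length of the shortest of them, and the log2 rank of the strongest summit was fitted with limma over all 9844 regions with a summit in all 6 lists. Of the members, 1242 were tested and 69 lacked a summit in at least 1 list. The median log2 difference of head minus trunk was -0.08 over the tested members and -0.06 over all regions tested. A negative value means a better rank in the head, which is called stronger here. The median absolute difference was 0.32 in members and 0.37 in all regions. The median SD of the log2 rank between replicates was 0.34 in head and 0.46 in trunk osteoblasts over the members.

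After Benjamini-Hochberg adjustment over all 9844 regions, 24 members differed between head and trunk osteoblasts in limma (adjusted p below 0.05), 12 stronger in the head and 12 stronger in the trunk. These were 1.93% of the members tested, beside 3.5% of all regions tested. For the head direction the share was 0.966% of members beside 1.21% of all regions, and for the trunk direction 0.966% beside 2.3%. By the rule at least 2 of 3 libraries of each group ranked a member within 8407, a limit not set for other regions tested. The third library could rank it weaker, and the difference between the shares was not tested. All 3 head ranks were better than all 3 trunk ranks in 116 members (9.34%), beside 11.4% of all regions, and the reverse held in 95 (7.65%), beside 10.2%. The 24 called members had absolute log2 differences in rank between 1.28 and 2.67. Head and trunk ranks did not overlap in 22 of them. Limma called them on these same ranks, so this count describes the calls. It was not taken over all called regions.

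**Figure D3:**
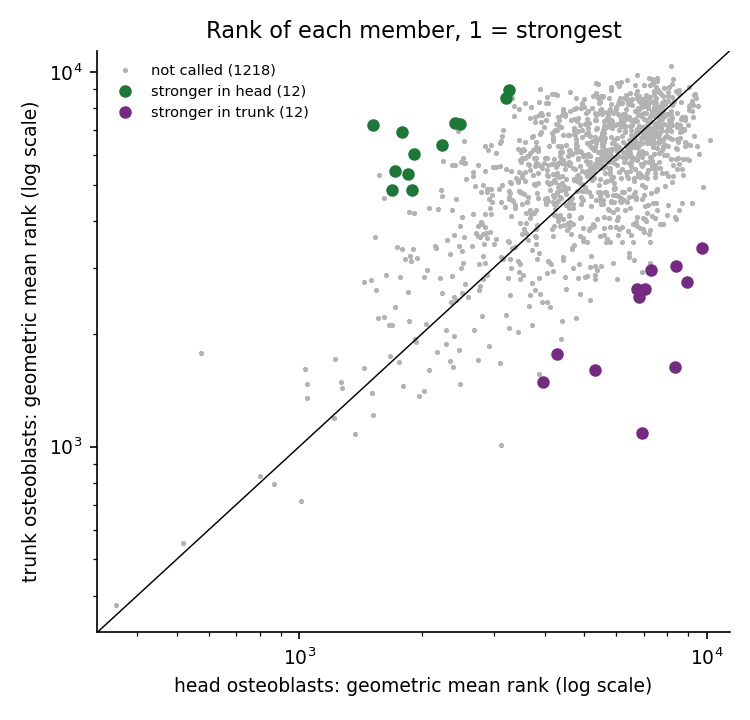
Geometric mean rank of each of the 1242 tested members in the 3 head (horizontal axis) and 3 trunk osteoblast libraries (vertical axis), both on log scales with 1 as the strongest, and the line of equality. Coloured points are the 12 members called stronger in the head and the 12 called stronger in the trunk, and grey points are the members not called.

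The clearest differences were members stronger in trunk osteoblasts. On chromosome 12, the region from 42973281 to 42973496 ranked 6301, 8551 and 6132 in head osteoblast replicates 1, 2 and 3 and 1089, 999 and 1171 in trunk osteoblast replicates 1, 2 and 3. The groups were far apart and the trunk libraries nearly equal. The log2 difference was 2.67 ± 0.34 (SE; limma, adjusted p = 0.00018), so the head rank was 6.38 times the trunk rank. This member also had a summit in all 6 chondrocyte libraries, at best at rank 6010, and was kept in 1 of them. On chromosome 2, the region from 34096432 to 34096637 ranked 10529, 7710 and 7223 in head and 1585, 1542 and 1760 in trunk osteoblasts, again with no overlap. Here the log2 difference was 2.36 ± 0.34 (SE; limma, adjusted p = 0.00056). Both calls held when any 1 osteoblast library was left out.

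On chromosome 7, ranks of the region from 43915622 to 43915773 were 8346, 7018 and 12134 in head and 2782, 3979 and 1885 in trunk osteoblasts, which is 1.70 ± 0.38 in log2 head minus trunk (SE; limma, adjusted p = 0.013). On chromosome 15, ranks of the region from 13932465 to 13932579 were 3058, 6735 and 7310 in head and 1749, 1040 and 2273 in trunk osteoblasts, which is 1.73 ± 0.40 in log2 head minus trunk (SE; limma, adjusted p = 0.015). On chromosome 14, ranks of the region from 31221629 to 31221945 were 8220, 6375 and 5997 in head and 2341, 2859 and 2374 in trunk osteoblasts, which is 1.44 ± 0.35 in log2 head minus trunk (SE; limma, adjusted p = 0.022). In all 3, every trunk library ranked the site higher in its list than every head library. The chromosome 14 region had a summit in 1 of the 6 chondrocyte full lists, at rank 15073, and the others in 3 and 4.

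Of the 12 members stronger in head osteoblasts, the 5 with the smallest p follow. On chromosome 15, ranks of the region from 39021629 to 39021782 were 1542, 1934 and 1918 in head and 7799, 13002 and 3235 in trunk osteoblasts, which is -1.95 ± 0.42 in log2 head minus trunk (SE; limma, adjusted p = 0.010). On chromosome 23, ranks of the region from 35870697 to 35871001 were 993, 1527 and 2317 in head and 6935, 15585 and 3474 in trunk osteoblasts, which is -2.25 ± 0.47 in log2 head minus trunk (SE; limma, adjusted p = 0.011). In both, trunk osteoblast replicate 3 lay closest to the head libraries. On chromosome 15, ranks of the region from 18320543 to 18320732 were 1712, 2155 and 3066 in head and 7390, 6999 and 4984 in trunk osteoblasts, which is -1.50 ± 0.36 in log2 head minus trunk (SE; limma, adjusted p = 0.020).

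On chromosome 3, ranks of the region from 55886306 to 55886559 were 2751, 2361 and 2361 in head and 12133, 6162 and 5099 in trunk osteoblasts, which is -1.55 ± 0.38 in log2 head minus trunk (SE; limma, adjusted p = 0.023). On chromosome 7, ranks of the region from 26297240 to 26297362 were 3077, 3670 and 2946 in head and 11075, 7978 and 6998 in trunk osteoblasts, which is -1.41 ± 0.36 in log2 head minus trunk (SE; limma, adjusted p = 0.029). Trunk osteoblast replicate 3 had the best trunk rank in all 5 of these head members. Head and trunk ranks did not overlap in any of the 5.

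Calls changed when single libraries were left out, and how much of this came from fitting fewer libraries was not tested. The number of called members fell from 24 to 3 without head osteoblast replicate 1 (0.241% of members tested, beside 0.868% of all regions tested). It was 6 without head osteoblast replicate 2 (0.483% beside 1.34%). It was 10 without head osteoblast replicate 3 (0.801% beside 1.35%), trunk osteoblast replicate 1 (0.781% beside 2.71%) or trunk osteoblast replicate 2 (0.796% beside 1.74%). Without trunk osteoblast replicate 3 it rose to 69 (5.54%), beside 6.86% of all regions tested, and 22 of the 24 were among them. Of the 69, 53 were stronger in the head (4.26% beside 3.56%) and 16 in the trunk (1.29% beside 3.30%). Without both osteoblast libraries with lost files it was 1 (0.0779% beside 0.0578%), the chromosome 12 region.

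**Figure D4:**
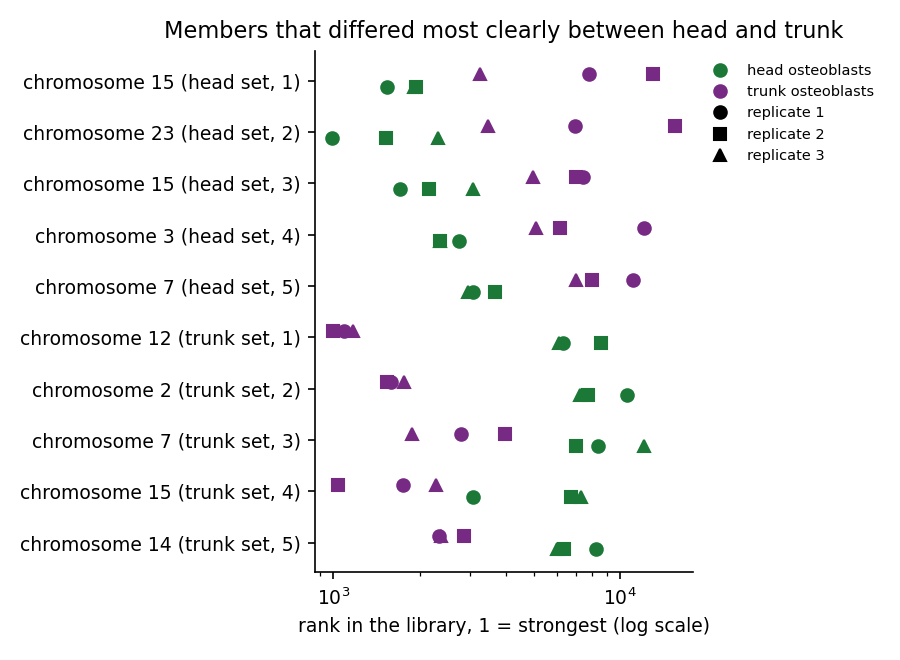
Ranks in the 6 osteoblast libraries (horizontal axis, log scale, 1 = strongest) of the 5 members per direction with the smallest p. Green symbols are head and purple symbols trunk osteoblasts, the shape gives the replicate, and the upper 5 rows are stronger in head and the lower 5 in trunk. Green and purple do not overlap in any row, and the purple triangle (trunk replicate 3) is the trunk symbol nearest to the head symbols in each upper row.

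The spread of summits within a member was compared across libraries. The members had a median width, from the first to the last summit of any library, of 91 bp. It was 82 bp for regions held by any group and 58 bp for regions of all 4 groups. For regions shared by both chondrocyte groups only it was 100 bp. In the 1247 members with a summit in the full lists of all 6 osteoblast libraries, the strongest summits spanned a median of 60 bp. The span was 51 bp over the 9137 such regions held by any group and 37 bp over the 4027 such regions of all 4 groups. Over the 380 such regions shared by both chondrocyte groups only it was 99.5 bp. By the rule no osteoblast group held those 380. The median shift between head and trunk osteoblasts was 10 bp in members, beside 9, 6 and 23.5 bp in the same order. In 896 of the 1247 members at least 5 chondrocyte libraries also had a summit in the full lists. There the median distance between the osteoblast and the chondrocyte summit was 8.5 bp, and 88.1% lay within 50 bp, beside a head to trunk osteoblast distance of 10 bp, with 86.8% within 50 bp. The joining distance limits both of these distances, and they were not tested against each other.

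In limma on summit position, 9 of the 1242 members had a shifted summit between head and trunk osteoblasts (0.725%, beside 0.396% of all regions tested), by between 55.3 and 312.3 bp. The widest shift, in a region on an unplaced scaffold, was 195.0 bp and not called when the mean position of all summits was used (limma, adjusted p = 0.62). By direction, 3 members had the head summit at the lower coordinate, beside 0.142% of all regions, and 6 at the higher, beside 0.254%. On chromosome 9 from 33538066 to 33538234, the head summits lay at -31.5, -29.5 and -24.5 bp from the median of the 6 libraries. The trunk summits lay at 28.5, 27.5 and 24.5 bp, a difference of -55.3 ± 5.58 bp (SE; limma, adjusted p = 0.0094). On chromosome 19 from 43457621 to 43457943, head summits lay at 149, 94 and 107 bp from that median. Trunk summits lay at -136, -94 and -157 bp, a difference of 245.7 ± 21.2 bp (SE; limma, adjusted p = 0.0048). The groups did not overlap in either. No member, and no region at all, was called with any 1 library left out, although the chromosome 9 shift stayed between -53.8 and -57.3 bp in those fits. Between 49 and 94 members had an unadjusted limma p below 0.05 in them. The 49 were of 1245 members, beside 434 of 10370 regions tested, without head osteoblast replicate 1. The 94 were of 1245 members, beside 703 of 10061 regions tested, without trunk osteoblast replicate 3. Positions were taken from the median of the libraries fitted, and the limma variance trend ran on their mean. With 5 libraries and the groups apart, that median lies within the larger group, so a shift itself moves the mean. With 6 or 4 libraries in groups of equal size the median lies between the groups, so a shift moves the mean less there. The lack of calls in the fits with 5 libraries was not traced to single libraries or to this centring. The part of each was not tested. Without the 2 osteoblast libraries with lost files, which left 4 libraries, 34 members were called (2.65%, beside 1.78% of all regions tested). The chromosome 9 region was among them (-53.0 bp; limma, adjusted p = 0.022). The chromosome 19 region was not (226 bp; limma, adjusted p = 0.056).

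Members were spread over all 25 chromosomes, and most 100 kb windows with a member held only 1. They numbered between 31 on chromosome 4 and 73 on chromosome 7, and 27 lay on unplaced scaffolds. As a share of regions held by any group they ranged from 7.21% on chromosome 4 to 12.3% on chromosome 25. The 1284 members on chromosomes fell into 1122 windows of 100 kb, of which 979 held 1 member and 17 held at least 3. Of 1297 windows with regions shared by both chondrocyte groups only, 997 held 1 of them. Of 2897 windows with regions of all 4 groups, 2083 held 1 of them. A kind with fewer regions shares fewer windows by its number alone, so these counts are not on equal terms. The median distance from a member to the next one was 214.5 kb, and 8.10% had another within 10 kb. Regions shared by both chondrocyte groups only numbered 1705 on chromosomes, beside the 1284 members. They lay closer to each other, with a median of 73.3 kb and 14.3% within 10 kb. For the 4010 regions of all 4 groups the median was 50.2 kb, with 15.6% within 10 kb. These differences and their cause were not tested. The median distance from a member to the nearest region of all 4 groups was 53.4 kb, beside 62.6 kb for the regions shared by both chondrocyte groups only and 65.7 kb for regions held by 1 group.

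A window on chromosome 21 from 6400001 to 6500000 held the most members, 5 of the 7 regions there that any group held, and no region of the chondrocyte-shared or all-group kind. The 5 members spanned 37.2 kb. The member from 6423805 to 6423905 was the strongest, with ranks of 2090, 2088 and 2774 in head and 1648, 2967 and 1752 in trunk osteoblasts, and a best chondrocyte rank of 9544. The member from 6460950 to 6461025 ranked 3607, 2180 and 2976 in head and 3233, 3559 and 4951 in trunk osteoblasts, and the one from 6454388 to 6454566 ranked 6539, 4156 and 5976 in head and 6847, 2019 and 3536 in trunk osteoblasts. In these 3 head and trunk ranks overlapped, and chondrocyte summits ranked between 9544 and 37340.

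The other members of that window had fewer and weaker chondrocyte summits. The one from 6448936 to 6449030 ranked 3888, 5035 and 4002 in head and 5092, 6169 and 4936 in trunk osteoblasts, and its 3 chondrocyte summits ranked 37469 or weaker. The one from 6437932 to 6438033 ranked 5856, 6443 and 13124 in head and 10121, 6607 and 6720 in trunk osteoblasts, and 2 head chondrocyte libraries had a summit, at ranks 50109 and 43588. The full lists placed 24 regions in the window.

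**Figure D5:**
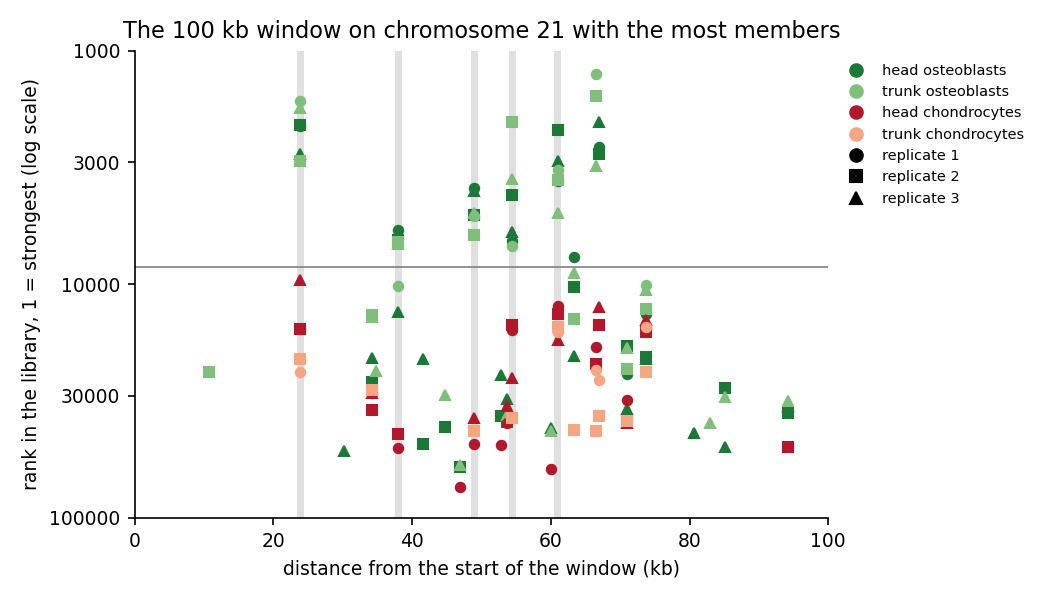
Rank of each summit (vertical axis, log scale, strongest at the top) in the chromosome 21 window, by distance from the window's start in kb (horizontal axis). Colours give the group, shapes the replicate, grey bars the 5 members, and the horizontal line the limit of 8407. Osteoblast symbols lie above the line in all 5 bars, apart from 1 head and 1 trunk symbol in the bar at 38.0 kb, and no chondrocyte symbol in the window lies above it.

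Windows with 3 members each lay on chromosomes 1, 2, 3, 6, 7, 11, 12, 17, 18, 19, 20, 24 and 25. In the window on chromosome 2 from 37700001 to 37800000, the member from 37751834 to 37751962 ranked 4046, 3405 and 3065 in head and 4257, 3998 and 6404 in trunk osteoblasts, and no better than 18816 in chondrocytes. In the window on chromosome 3 from 28000001 to 28100000, the member from 28065473 to 28065612 ranked 4288, 4025 and 4236 in head and 5617, 4501 and 4077 in trunk osteoblasts, and no better than 37437 in chondrocytes. Both were kept in all 6 osteoblast libraries with overlapping head and trunk ranks. In the window on chromosome 1 from 52500001 to 52600000, the member from 52594437 to 52594456 ranked 3539, 7008 and 5537 in head and 6342, 4271 and 5532 in trunk osteoblasts, and was kept in head chondrocyte replicate 3 at rank 5601.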

How the data were processed

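The tools named in the submitters' processing notes are MACS2, Bowtie2, fastp, deepTools, bedtools and SAMtools, and the build is danRer11 (GRCz11). Their versions and settings are not given. Each of the 12 deposited lists holds 1 summit per row with the authors' score, a −log10 value from MACS2 whose basis (p or q) is not stated. The score served only to rank summits within a list. Per the labels' protocols, enzyme amount and reaction time were adjusted to cell number. The sequencing depth is unknown.

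Positions were converted to count from 1. Groups and replicate numbers follow the sample titles. Peak names inside 7 of the 12 lists, all 6 osteoblast lists and that of trunk chondrocyte replicate 3, carry another number than the title, so the numbering of the held-out rounds and per-replicate values rests on the titles alone. Nothing says whether replicates came from separate fish, so p-values measure the spread between these libraries. Ranks at equal list length were fitted with limma 3.58.1 (R 4.3.3, trended and robust moderation, 2 group means) and adjusted by Benjamini-Hochberg at 0.05. The script was tested on simulated data with independent noise in each library, so deviations shared between libraries were not covered.

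The members, lists and tests were chosen with earlier results of these data known. Named regions are the 5 members per direction with the smallest p in the rank fit and up to 3 per direction in the position fit. Those nearest the threshold and those in the 5 windows with the most members are named too, and the text gives a part of all these. Windows with 3 members tied, and those first by chromosome and position filled the 5. The planned set of members kept in all 6 osteoblast libraries without a chondrocyte summit within 1000 bp had 0 entries. The 10 strongest members and the 14 without a chondrocyte summit in the region were named in its place after their values were seen. Genes, transcription starts and motifs are not analysed here, since no annotation or sequence of this build was used.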

Additional observations from a re-analysis of the deposited data

How the results depend on the processing

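The count of 1311 members was within 1.5 times of itself with summits joined within 100 or 500 bp, with 1 library per group sufficing (1800, holding 783 of the members) and without the libraries with lost files (963, holding 862). It was 828 with the strongest 5000 summits (304 of them members), 2861 at the next list length without the shortest list, 2726 with full lists (77 of them members) and 339 with all 6 osteoblast and no chondrocyte libraries required. Leaving out single libraries, with 2 libraries of each group still required, gave between 868 (without trunk osteoblast replicate 3) and 1532. Members without a chondrocyte summit numbered between 14 and 26 when single chondrocyte libraries were left out. Members called in the rank comparison numbered 7 at 8407 summits (1.21%, beside 1.505% of all regions tested). Of these, 2 were stronger in head (0.346% beside 0.323%) and 5 in trunk (0.865% beside 1.18%). They numbered 12 with the replicate block (0.966% beside 2.16%), all 12 among the 24. The counts of 1 without libraries with lost files and between 3 and 69 with single libraries left out stand above with their shares. Same-numbered head and trunk libraries did not consistently deviate together (correlations 0.22, -0.19 and -0.08), so the numbers were not taken to pair them. Of the differently numbered pairs, head replicate 2 with trunk replicate 3 (0.40) and head replicate 3 with trunk replicate 2 (0.12) had the highest values. A pairing or shared batch under other numbers was not tested, and outside the block the limma p-values treat the libraries as unpaired. Under the block the calls of the chromosome 7 region from 26297240 in rank (limma, adjusted p = 0.058) and of the chromosome 9 region in position (limma, adjusted p = 0.097) were not made. Members with a shifted summit (limma) numbered 5 at 8407 summits (0.865%, beside 0.452% of all regions tested) and 5 with joining within 100 bp (0.432% beside 0.229%). They numbered 14 with joining within 500 bp (1.12% beside 0.609%), 6 with the mean summit position (0.483% beside 0.305%) and 3 with the replicate block (0.242% beside 0.193%). Without libraries with lost files there were 34 (2.65% beside 1.78%). With any single library left out there were 0, in fits centred as described above. The most members in a window fell from 5 to 3 with windows of 50 kb. Causes were not tested. No named region changed direction. Of 60 recomputations of the 10 regions named for rank with a library left out, 35 kept their call and 25 lost it. Planned results on transcription starts, motifs and gene lists were not run.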

Other observations

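In the chromosome 21 window with 5 members, a pair of neighbouring regions outside the membership divided the osteoblast groups. The region from 6466402 to 6466506 ranked 1261, 1568 and 3100 in trunk osteoblast replicates 1, 2 and 3, and no head osteoblast library had a summit there in the full lists. The region from 6466830 to 6466931, separated by a gap of 323 bp, ranked 2576, 2755 and 2022 in head osteoblast replicates 1, 2 and 3, and no trunk osteoblast library had a summit there. Both had summits in 4 chondrocyte libraries, none of them kept. Neither counted as a member, because each was held by 1 osteoblast group. Across the genome 15 such pairs of neighbours held by head and trunk osteoblasts alone lay within 500 bp of each other, among 1469 and 1018 regions held by those groups alone. In 2 of the 15, all 3 libraries of each group had a kept summit in their own region and the full lists had none of the other group. The second of these lay on chromosome 3, with the head region from 54718553 to 54718615 and the trunk region from 54718111 to 54718128. These pairs were noticed in the data and were not tested.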
